A study of Mus musculus with 12 samples.

Results

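The miR-200 family, which includes miR-141 and miR-429, is a small group of mouse microRNAs (miRNAs), the short RNAs that guide the silencing of messenger RNAs with matching sites. Its 7 members in the count table were taken by name: mmu-miR-200a-3p, mmu-miR-200a-5p, mmu-miR-200b-3p, mmu-miR-200b-5p and mmu-miR-429-3p from one genomic cluster, and mmu-miR-200c-3p and mmu-miR-141-3p from another. The species prefix is left out from here on. They were 7 of the 1549 entries of the table. All 7 passed the filter on low counts in every comparison, and 6 had a count in every library. miR-429-5p was not analysed here.

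Small RNA libraries came from 5 groups, all labelled WT and all collected by cell sorting. Haploid embryonic stem cells (ESC) of paternal origin were represented by 3 lines, A129-2 with 2 libraries, A129-6 with 3 and A129-17 with 2, grown with LIF and the 2i inhibitors PD0325901 and CHIR99021 and kept haploid by repeated Hoechst sorting. R1 (n = 2) is a diploid mouse ESC line and was the only diploid line. Round spermatids (RS, n = 3), the haploid cells that follow meiosis, were sorted with Hoechst from the testes of male 129Sv mice, whose age and number the sources used here do not state. Sorts were repeated for each sample, but separate cultures or animals were not named, so the p-values cover library-to-library spread alone, some or all of which may be technical.

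As background, the seed of a miRNA, bases 2 to 8 from its 5′ end, is the stretch that pairs with target messenger RNAs, so family members with the same seed share most predicted targets. The family is best known for silencing Zeb1 and Zeb2, repressors of the epithelial cadherin gene, and thereby for holding cells in an epithelial state. It is found in epithelia and in ESC, which form compact epithelium-like colonies.

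The mature sequences show how the members divide into seed groups that cut across the genomic clusters. They are given 5′ to 3′ from RefSeq (GRCm38.p6), with bases 2 to 8 in capitals, and all 7 names were matched.
miR-200b-3p: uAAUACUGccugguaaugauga
miR-200c-3p: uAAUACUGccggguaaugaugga
miR-429-3p: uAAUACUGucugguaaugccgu
miR-200a-3p: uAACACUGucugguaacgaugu
miR-141-3p: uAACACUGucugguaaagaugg
miR-200a-5p: cAUCUUACcggacagugcugga
miR-200b-5p: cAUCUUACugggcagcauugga

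miR-200b-3p, miR-200c-3p and miR-429-3p shared the seed AAUACUG, and miR-200a-3p and miR-141-3p shared AACACUG. The change from the miR-200b-3p seed to the miR-200a-3p seed is U4C, counted from 1 at the 5′ end. Both 5p members shared a seed of their own, AUCUUAC. Within a seed group the 3p members were close to each other: miR-200b-3p and miR-200c-3p differed at U11G and A22G over their first 22 bases, and miR-200a-3p and miR-141-3p at C17A and U22G. The sources used here do not state how reads matching several miRNAs were assigned, so some reads of these pairs could have been counted under the partner.

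One cluster lies on the minus strand of chromosome 4 at chr4:156053905-156055750 (GRCm38), where Mir200b, Mir200a and Mir429 follow each other over 1846 bases. All 3 hairpins lie in introns of Ttll10, a tubulin tyrosine ligase-like gene on the same strand. Mir200b and Mir200a also lie in an intron of the non-coding transcript Gm13648, and Mir429 in its exon 2. The other cluster lies on the minus strand of chromosome 6 at chr6:124717914-124718390, where Mir200c and Mir141 are 336 bases apart in an intron of the non-coding transcript Gm15884. Mir141 also overlaps part of exon 1 of Gm29008.

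The 2 hairpins with both arms among the members are shown with those arms in capitals, the 5p arm first.
Mir200b: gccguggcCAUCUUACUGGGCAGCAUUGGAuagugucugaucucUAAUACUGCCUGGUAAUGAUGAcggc
Mir200a: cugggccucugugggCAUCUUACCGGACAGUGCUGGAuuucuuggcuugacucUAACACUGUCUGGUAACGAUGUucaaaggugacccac

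Total counts were 3709786 to 9176080 per ESC library and 155232 to 243714 per spermatid library, so in CPM, the level on a common scale in which each library's miRNA counts have the same total, 1 count was worth 0.109 to 0.270 CPM in ESC and 4.10 to 6.44 CPM in spermatids. Of the markers, a list of 9 ESC miRNAs summed to 76907 to 139504 CPM in haploid libraries, 193209 to 193614 in R1 and 57.4 to 2583 in RS. In RS replicates 1 and 3, 4 of the 9 were at 0, miR-290a-3p, miR-302a-3p, miR-302b-3p and miR-302d-3p. The 6 spermatid miRNAs reached summed levels of 157 to 801 CPM in haploid libraries, where miR-34b-5p was at 0 in 6 of 7, 939 to 971 in R1 and 253006 to 343340 in RS. A list of 4 epithelial miRNAs, miR-203-3p, miR-205-5p, miR-375-3p and miR-192-5p, had sums of 422 to 714 CPM in haploid libraries, 926 to 1030.1 in R1 and 19511 to 35225 in RS, with none at 0. Of the 4, edgeR called 3 higher and 1 lower in the haploid lines against R1 (median log2 1.65), and 1 higher and 3 lower against RS (median log2 -2.20). Of all miRNAs tested, 35.3% were called higher and 35.3% lower against R1, and 44.5% higher and 20.8% lower against RS. The sums of 6 mesenchymal markers were 5958 to 26969, 15011 to 16709 and 23333 to 67592 CPM for the same groups, and those of 7 blood and endothelial markers 356 to 856, 640 to 678 and 1437 to 14316 CPM. All 6 mesenchymal markers had counts in every library, whereas miR-144-3p was at 0 in 6 of 7 haploid libraries and miR-223-3p in 2. The part of such other cells in the results was not tested.

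The family took up 0.0747% to 0.148% of counts in haploid libraries, 0.501% to 0.526% in R1 and 0.225% to 0.325% in RS. The 5 3p members together averaged 1353 ± 123 CPM (SD) for the 2 libraries of A129-2, 931 ± 189 CPM for the 3 of A129-6 and 877 ± 205 CPM for the 2 of A129-17. For the 2 libraries of R1 they averaged 5013 ± 192 CPM, and for the 3 of RS 2530 ± 573 CPM. On this total-count scale the haploid libraries ran from 728 to 1440 CPM and lay below all R1 and RS libraries, the lowest RS library standing at 2081 CPM. Against RS that order turned with scaling: with TMM factors over all 12 libraries, as in the tests with RS, the means were 1734 CPM for A129-2, 1409 for A129-6 and 1576 for A129-17, against 3823 for R1 and 1178 for RS. In these bulk libraries, fewer cells with a miRNA and less of it per cell cannot be told apart.

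miR-200b-3p silences Zeb1 and Zeb2 and was the most abundant member in ESC. The A129-2 libraries had 1107 and 977 CPM of it, those of A129-6 had 799.6, 711 and 548 CPM, those of A129-17 had 539.8 and 846 CPM, those of R1 had 3371 and 3199.8 CPM, and those of RS had 1029.9, 728 and 689.9 CPM. Both R1 libraries stood above all others, and the haploid and spermatid libraries overlapped. miR-200a-3p is its neighbour on the same strand and carries the other seed. The A129-2 libraries had 105 and 72.5 CPM, those of A129-6 had 39.4, 55.4 and 27.9 CPM, those of A129-17 had 44.1 and 46.6 CPM, those of R1 had 833 and 772 CPM, and those of RS had 985, 869.7 and 846 CPM. Here R1 and RS stood together and all 7 haploid libraries lay far below both. miR-429-3p comes from the last hairpin of that cluster. For it the A129-2 libraries had 54.5 and 29.6 CPM, those of A129-6 had 19.98, 25.8 and 9.20 CPM, those of A129-17 had 13.6 and 20.5 CPM, those of R1 had 277 and 263 CPM, and those of RS had 49.2, 58.0 and 54.0 CPM. R1 was high, and A129-2 replicate 1 reached into the spermatid range.

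miR-200c-3p was the main product of the chromosome 6 cluster. The A129-2 libraries had 171.7 and 187 CPM, those of A129-6 had 241, 170.99 and 140.75 CPM, those of A129-17 had 134 and 108 CPM, those of R1 had 660.0 and 632 CPM, and those of RS had 1055, 412 and 708 CPM. On the total-count scale all haploid libraries lay below all R1 and RS libraries, and R1 lay within the spread of RS. With TMM factors the haploid lines against RS were not called (log2 -0.50, edgeR adjusted p = 0.196). miR-141-3p, from the same cluster but with the seed of miR-200a-3p, was scarce. The A129-2 libraries had 6 and 6 counts, those of A129-6 had 1, 6 and 14, those of A129-17 had 4 and 7, those of R1 had 71 and 103, and the much shallower RS libraries had 14, 2 and 6. In CPM these were 0.139 to 1.92 in haploid libraries, 9.30 and 11.2 in R1, and 57.4, 12.9 and 36.0 in RS. On this total-count scale the 3 kinds of cell did not overlap. With TMM factors R1 against RS was not called (log2 -1.15, edgeR adjusted p = 0.269). The exact 95% interval of the RS library with 2 counts ran from 1.56 to 46.5 CPM and took in both R1 values; such intervals cover counting error only.

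The 5p members come from the hairpin strand that is usually discarded and were scarcer than their 3p partners. miR-200a-5p had 11.9 to 33.9 CPM in the 7 haploid libraries, 103 and 118 in R1, and 61.5, 167 and 42.0 in RS. Haploid libraries were again below R1, with no overlap, and RS spread over both sides of R1. miR-200b-5p had 5.89 to 21.6 CPM in haploid libraries, 10.5 and 11.9 in R1, and 2, 1 and 0 counts in the 3 RS libraries. The haploid range enclosed R1, and the RS library with 0 counts allows up to 18.0 CPM.

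**Figure D1:**
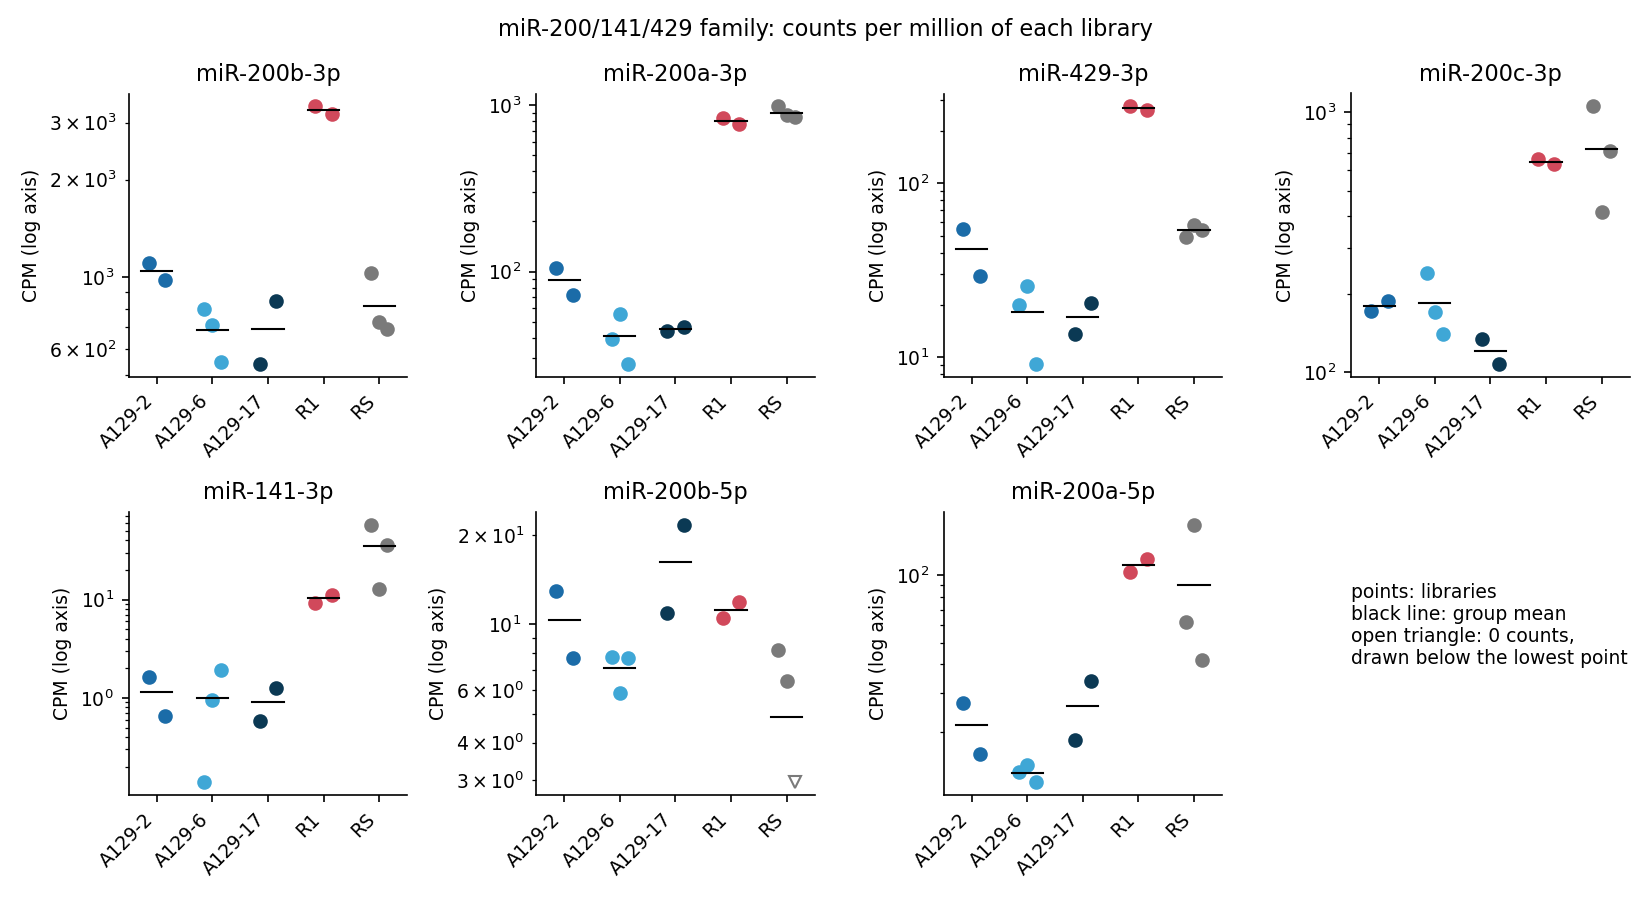
CPM of each library (points, log axis) and the group mean (black line) for the 7 members in A129-2, A129-6, A129-17, R1 and RS, with a library at 0 counts drawn as an open triangle below the lowest point. miR-200a-3p is at 772 to 985 CPM in R1 and RS and at 27.9 to 105 CPM in the haploid lines, whereas miR-200b-3p is high in R1 alone.

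The first comparison asked how the paternal haploid ESC differed from diploid ESC. In edgeR's quasi-likelihood test with Benjamini-Hochberg adjustment over all 757 miRNAs tested, 6 of the 7 members fell in the haploid lines, where 35.3% of all miRNAs tested were called lower and 35.3% higher. miR-200a-3p, miR-429-3p and miR-141-3p had the larger log2 differences, of -3.75 (SE 0.21, adjusted p = 6.52e-10), -3.43 (SE 0.25, adjusted p = 1.16e-08) and -3.18 (SE 0.64, adjusted p = 0.000431). miR-200b-3p and miR-200c-3p fell less, with -1.92 (SE 0.20, adjusted p = 7.20e-07) and -1.87 (SE 0.24, adjusted p = 6.27e-06). The 5p arm miR-200a-5p lay between them at -2.38 (SE 0.27, adjusted p = 1.56e-06). miR-200b-5p did not pass, at 0.056 (SE 0.39, adjusted p = 0.909), and its sign turned with RLE (-0.18) and total-count scaling (-0.082). The median over the 7 members was -2.38 and over all miRNAs tested 0.33. RLE scaling moved that overall median by -0.24 and upper-quartile scaling by 0.31.

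Among the alternatives, miR-200a-3p, miR-429-3p, miR-141-3p, miR-200a-5p and miR-200c-3p passed in all 21, and miR-200b-3p in 19. It was lost where each library was corrected for a trend of counts with the GC content of the mature sequence: its log2 difference was then 0.17 (edgeR, adjusted p = 0.509), while miR-200a-3p stood at -2.24, miR-429-3p at -1.92, miR-141-3p at -1.68, miR-200c-3p at -0.70 and miR-200a-5p at -3.05. GC content was 36.4% in miR-200b-3p, 40.9% in miR-200a-3p, miR-141-3p and miR-429-3p, 43.5% in miR-200c-3p, 50% in miR-200b-5p and 54.5% in miR-200a-5p. Across 358 miRNAs the haploid minus R1 difference ran with GC content, as a description (Spearman's rho 0.502; all points share the same libraries). Of 57 other miRNAs within 2.5 percentage points of miR-200b-3p, 66.7% were called lower with a median log2 of -2.78. Of 79 within that distance of miR-200a-3p, 63.3% were called lower with a median of -1.94, and of 88 near miR-200a-5p 23.9% were called lower with a median of 0.92. The log2 difference minus the median of miRNAs alike in GC was -1.82 for miR-200a-3p, -1.49 for miR-429-3p, -1.24 for miR-141-3p, -3.30 for miR-200a-5p, -0.59 for miR-200c-3p and 0.86 for miR-200b-3p. Whether GC content plays a part in the difference was not tested.

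**Figure D2:**
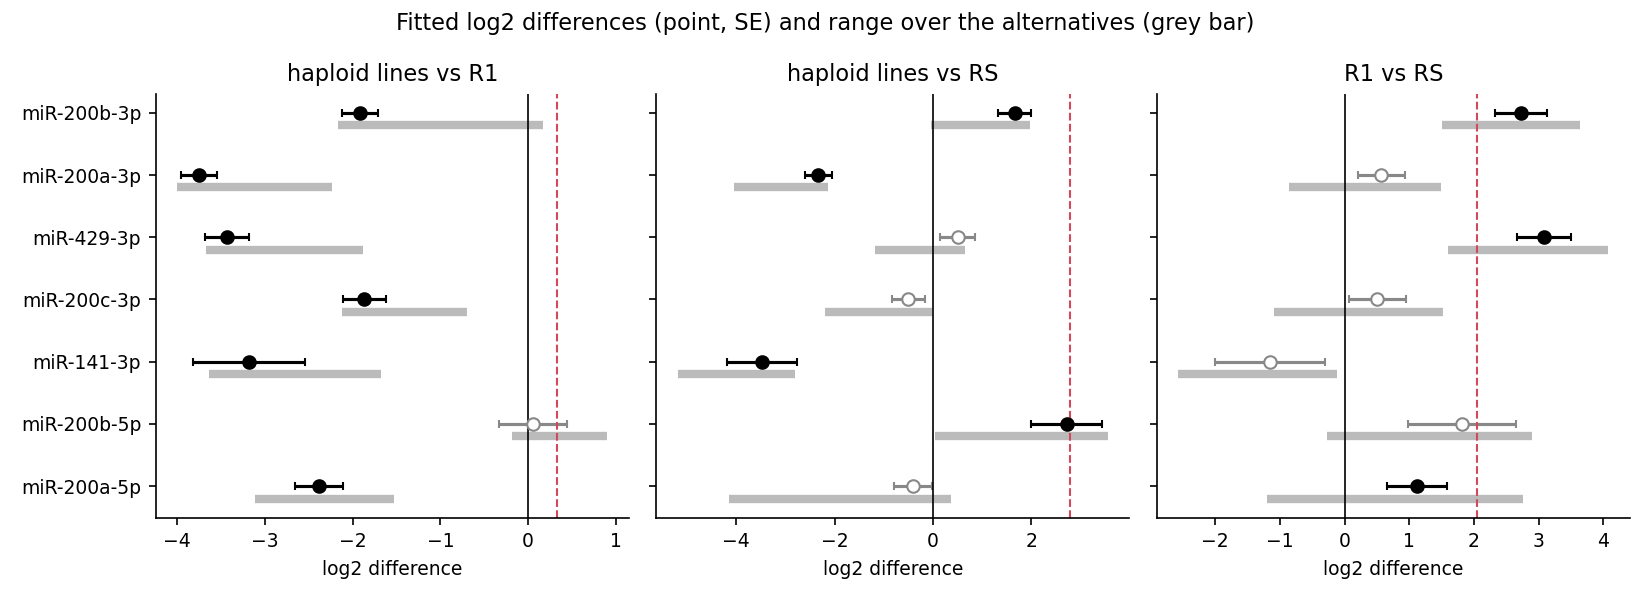
Fitted log2 differences with SE (filled points passed an adjusted p under 0.05 in edgeR, open points did not), the range over the alternatives (grey bars) and the median of all miRNAs tested (red dashed line) for the 7 members in the haploid lines against R1, the haploid lines against RS and R1 against RS. Against R1 the bars of miR-200a-3p, miR-429-3p, miR-141-3p, miR-200c-3p and miR-200a-5p stay below 0, and that of miR-200b-3p crosses it.

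Each haploid line was also set against R1, and these comparisons share the R1 libraries. The same 6 members fell in each (edgeR), where 28.8% of all miRNAs tested were called lower in A129-2, 32.1% in A129-6 and 31.6% in A129-17. The log2 difference of miR-200a-3p was -3.29 for A129-2 (SE 0.31), -4.20 for A129-6 (SE 0.28) and -3.77 for A129-17 (SE 0.32). miR-200b-3p had -1.74, -2.12 and -1.90 in the same lines, and miR-200c-3p had -1.90, -1.68 and -2.02. miR-200a-5p ran from -2.91 in A129-6 to -1.74 in A129-17. miR-200b-5p passed in no line and stood at 0.87 (SE 0.48, adjusted p = 0.122) in A129-17. With the GC correction alone 3 members were called in each line, miR-200a-3p, miR-429-3p and miR-200a-5p. Of all miRNAs then called, 48.0% were higher in A129-2, 46.9% in A129-6 and 47.2% in A129-17. With a replicate block added, edgeR also called miR-200c-3p lower in A129-2 (-0.78, adjusted p = 0.0429) and A129-17 (-0.74, adjusted p = 0.0487). In that setting miR-141-3p was called lower in A129-6 (-3.06, edgeR adjusted p = 0.0084). The call of miR-141-3p was lost in A129-2 without A129-2 replicate 2 (adjusted p = 0.0620), and in A129-17 without A129-17 replicate 1 (adjusted p = 0.0552) or R1 replicate 2 (adjusted p = 0.0510). With all 12 libraries in the edgeR fit, 5 further calls were lost: miR-200b-3p in A129-2 (-0.91, adjusted p = 0.0828) and A129-17 (-1.02, adjusted p = 0.0505), miR-200c-3p in A129-2 (-1.06, adjusted p = 0.0710) and A129-6 (-0.82, adjusted p = 0.109), and miR-200a-5p in A129-17 (-0.86, adjusted p = 0.125). That fit moved the log2 differences of all shared miRNAs up by a median of 0.82 in A129-2, 0.86 in A129-6 and 0.88 in A129-17.

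Between the haploid lines, edgeR's F-test called 29 of 757 miRNAs (3.83%) and 0 of the 7 members, of which 4 had an unadjusted p under 0.05 (adjusted p 0.122 to 0.143). DESeq2 called 3 of them, miR-200a-3p, miR-200a-5p and miR-429-3p, among 90 miRNAs. Without A129-6 replicate 3, edgeR called 2, miR-200a-5p and miR-200b-5p, among 80. Without A129-6 replicate 1 or 2 it called 0 miRNAs in all, without A129-2 replicate 1 or 2 it called 9 or 6, and without A129-17 replicate 2 it called 44. The mean of miR-200a-3p was 88.8 ± 23.1 CPM for A129-2, 40.9 ± 13.8 CPM for A129-6 and 45.4 ± 1.74 CPM for A129-17 (SD). The mean of miR-200b-5p was 10.3 ± 3.71, 7.12 ± 1.07 and 16.2 ± 7.57 CPM for the lines in that order.

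The cluster and seed arrangement was compared within libraries, where scaling drops out. The summed chromosome 4 3p members stood over the summed chromosome 6 members by a mean log2 ratio of 2.69 for A129-2 (SD 0.25), 2.02 for A129-6 (SD 0.19), 2.61 for A129-17 (SD 0.65), 2.73 for R1 (SD 0.02) and 1.32 for RS (SD 0.57). The haploid libraries, from 1.83 to 3.07, enclosed both R1 values, and RS, from 0.89 to 1.96, overlapped the lowest of them. The summed AAUACUG members stood over the summed AACACUG members by a mean log2 ratio of 3.84 for A129-2 (SD 0.27), 4.44 for A129-6 (SD 0.38), 4.15 for A129-17 (SD 0.29), 2.37 for R1 (SD 0.02) and 0.73 for RS (SD 0.30). The seed ratio separated the kinds of cell with no overlap, at 3.64 to 4.75 in haploid ESC, 2.36 to 2.39 in R1 and 0.44 to 1.03 in RS. As a share of the summed 3p members, the AACACUG seed held 3.59% to 7.41% in haploid libraries, 16.0% and 16.3% in R1 and 32.8% to 42.4% in RS. These sums were given no test, since they are scores over chosen members. How often ratios of other miRNAs separate these groups was not tested. Of all miRNAs tested, 35.3% were called lower and 35.3% higher in the haploid lines against R1. Against RS they were 20.8% and 44.5%.

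**Figure D3:**
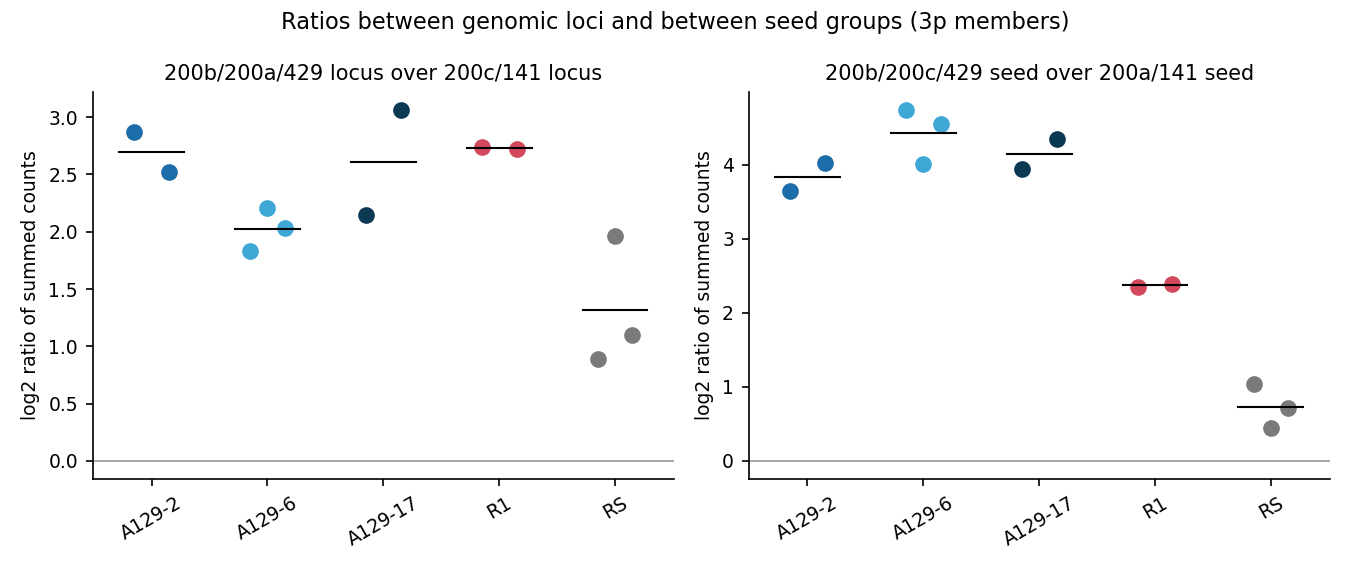
Log2 ratio of summed counts between the 2 genomic clusters (left) and between the 2 seed groups (right) in each library (points) with the group mean (black line). The cluster ratio of the haploid lines encloses R1, while the seed ratio falls into 3 separate ranges, from 3.64 to 4.75 in haploid ESC, near 2.4 in R1 and from 0.44 to 1.03 in RS.

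Within the AACACUG group nearly all counts were those of miR-200a-3p, which made up 3.58% to 7.30% of the 3p sum in haploid libraries, 15.8% and 16.2% in R1 and 31.0% to 41.8% in RS. miR-200b-3p made up 72.7% to 82.8%, 65.5% and 65.6%, and 29.6% to 34.98% in the same order of groups. The share of miR-141-3p was at most 1.81% in any library. By level the order was miR-200b-3p, miR-200c-3p, miR-200a-3p, miR-429-3p, miR-141-3p in all 7 haploid libraries. In both R1 libraries miR-200a-3p stood ahead of miR-200c-3p. In RS the lead went to miR-200c-3p in replicate 1 and to miR-200a-3p in replicates 2 and 3.

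**Figure D4:**
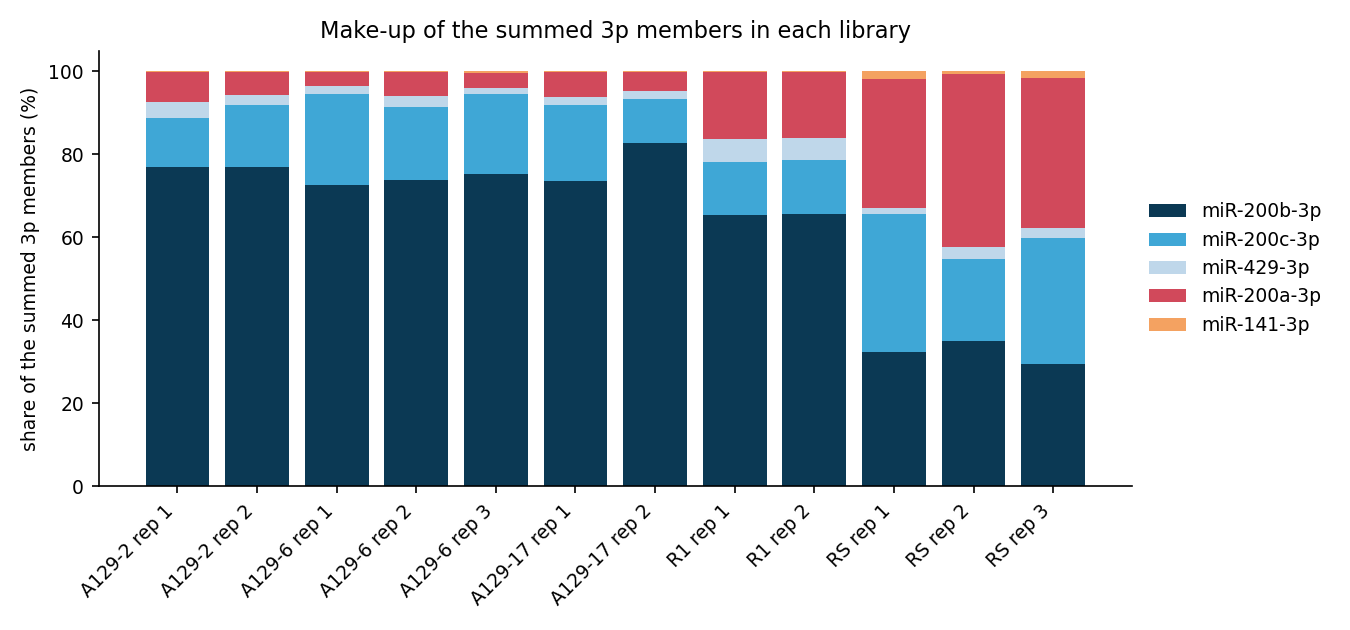
Share of each 3p member in the summed 3p members of each library, in percent, with the AAUACUG members in blue and the AACACUG members in red and orange. The red miR-200a-3p band covers 3.58% to 7.30% in haploid libraries, about 16% in R1 and 31.0% to 41.8% in RS.

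Ratios between single members were then tested for 12 pairs in the comparisons with R1 and with RS, 24 tests in all, by two-sided exact permutation tests over libraries with Benjamini-Hochberg adjustment over the 24. With 7 haploid and 2 R1 libraries the smallest possible p was 0.0278, and 6 pairs reached it (adjusted p = 0.0444, exact permutation). These 6 passed only with the tests against RS in the same adjustment: over the 12 pairs with R1 alone their adjusted p was 0.0556 (exact permutation), and 0 passed. The pairs share members, so they are not separate results. How many pairs of other miRNAs would differ as much was not tested. miR-200b-3p exceeded miR-200a-3p by 10.5 to 20.3 times in haploid libraries and by 4.05 and 4.15 times in R1, a log2 change of the miR-200a-3p to miR-200b-3p ratio of -1.86. The same ratio to miR-200c-3p differed by -1.95 on the log2 scale, and in both cases all 7 haploid libraries lay below R1. In haploid libraries miR-200b-3p and miR-200c-3p had larger ratios to miR-429-3p than in R1, by 1.54 and 1.63 on the log2 scale. miR-200b-3p and miR-200c-3p, which come from different clusters and share a seed, had a ratio of 3.32 to 7.85 in haploid libraries and 5.06 and 5.11 in R1 (log2 difference -0.09, adjusted p = 0.917, exact permutation), and the difference of their GC-corrected fitted values was 0.87. miR-200a-3p and miR-429-3p, from 1 cluster but with different seeds, had a ratio of 1.93 to 3.23 in haploid libraries and 2.93 and 3.01 in R1 (log2 difference -0.32, adjusted p = 0.349, exact permutation). The 4 pairs with miR-141-3p did not pass, with log2 differences from -0.44 to 1.51. Of the 6 pairs, some join the 3p and 5p arms of 1 hairpin and are given below. Among the rest, miR-200a-3p with miR-200b-3p and miR-200b-3p with miR-429-3p lie in 1 cluster. The pairs miR-200b-3p with miR-429-3p and miR-200c-3p with miR-429-3p share a seed. With 1 haploid or R1 library left out, or with line means, 0 pairs reached an adjusted p under 0.05 against R1 (exact permutation). With line means or 1 R1 library no p under 0.05 was possible, so that outcome was fixed in advance. Leaving out a haploid library also raised the smallest possible p. These settings therefore cannot show whether the ratios are stable.

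By place in the cluster, miR-200a-3p and miR-429-3p from the later hairpins of the chromosome 4 cluster had larger log2 differences than miR-200b-3p from the first. On chromosome 6 the values were -3.18 for miR-141-3p from the later hairpin and -1.87 for miR-200c-3p from the first, but their ratio did not pass (log2 difference 1.51 for miR-200c-3p over miR-141-3p, adjusted p = 0.208, exact permutation), with miR-141-3p at 1 to 14 counts in haploid libraries.

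**Figure D5:**
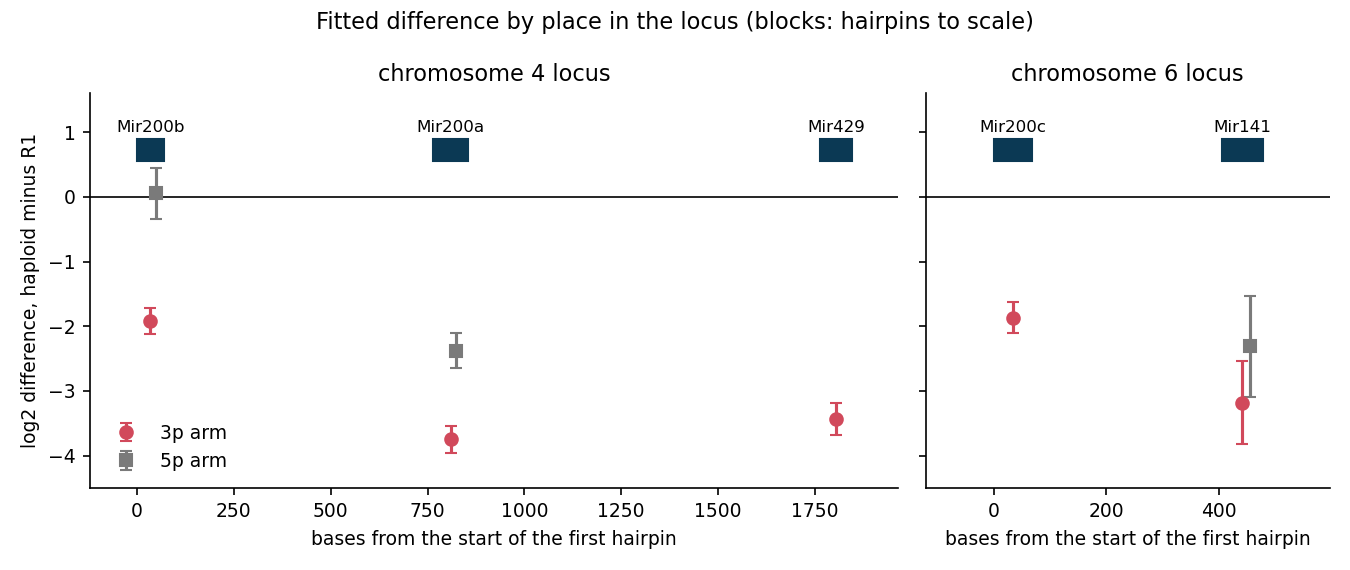
Log2 difference, haploid minus R1, with SE for each tested arm against its distance in bases from the start of the first hairpin of its cluster, 3p arms as red circles and 5p arms as grey squares, with hairpins drawn to scale. The 3p differences are -1.92 and -1.87 at the first hairpins and -3.75, -3.43 and -3.18 at the later ones, where the last value, of miR-141-3p, rests on few counts.

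The arms of the hairpins with 2 members were compared in the same 24 tests. miR-200a-3p exceeded miR-200a-5p by 1.37 to 4.52 times in haploid libraries and by 6.54 and 8.07 times in R1 (log2 difference -1.35, adjusted p = 0.0444, exact permutation). miR-200b-3p exceeded miR-200b-5p by 39.2 to 127 times in haploid libraries and by 269 and 322 times in R1 (log2 difference -1.91, adjusted p = 0.0444, exact permutation). All 7 haploid libraries lay below both R1 libraries in each pair. The arms differ in GC content, and the direction for miR-200a turned with the GC correction: the difference of the fitted values, 3p minus 5p, was then 0.81 for miR-200a and -0.048 for miR-200b, against -1.37 and -1.98 without it. Whether GC content plays a part in these ratios was not tested. miR-141-5p, the passenger strand of Mir141, fell in the haploid lines on few counts (log2 -2.31, SE 0.78, edgeR adjusted p = 0.0161). miR-200c-5p had 1 count over the haploid libraries and 7 over R1, and was not tested.

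Haploid ESC were next set against the haploid germ cells. In the fit of all 12 libraries edgeR tested 806 miRNAs and called 20.8% lower and 44.5% higher in the haploid lines, with a median log2 difference of 2.79 over all. Of the members 2 fell and 2 rose, and the median over the 7 was -0.41. miR-141-3p fell by 3.48 in log2 units (SE 0.71, adjusted p = 0.000162) and miR-200a-3p by 2.33 (SE 0.27, adjusted p = 5.72e-08), the AACACUG members. Both kept the direction and the call in all 22 alternatives, and relative to total counts the RS mean of miR-200a-3p was 15.4 times its haploid mean. miR-200b-3p rose by 1.66 (SE 0.33, adjusted p = 0.000135), but with total-count scaling the difference was -0.046 and with upper-quartile scaling 0.082. Those scalings moved the median of all miRNAs by -1.68 and -1.56. miR-200b-5p was called at 2.71 (SE 0.73, adjusted p = 0.00224) against 3 counts in RS, and the ratio of its pooled CPM was 1.89 with an interval of 0.644 to 9.22. miR-200a-5p (-0.41, adjusted p = 0.343), miR-200c-3p (-0.50, adjusted p = 0.196) and miR-429-3p (0.50, adjusted p = 0.220) did not pass, and miR-429-3p changed sign with total-count scaling (-1.18). miR-200a-5p was called lower in 6 of the 22 alternatives: both GC corrections (-4.15 in each), RLE (-0.93), upper-quartile (-1.96) and total-count scaling (-2.19), and DESeq2 (-0.93). miR-200c-3p was called lower in 8 of 22, which were the same 6, with total-count scaling at -2.20 as the lowest, the stricter filter (-0.77), and the fit without A129-2 replicate 2 (-0.85, edgeR adjusted p = 0.0427).

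Ratios within libraries do not carry that scaling. Against RS, 9 of the 12 pairs changed at the smallest p the 7 and 3 libraries allow (p = 0.00833, adjusted p = 0.0222, exact permutation). These pairs share members too, and how many pairs of other miRNAs would change was not tested. miR-200b-3p exceeded miR-200a-3p by 10.5 to 20.3 times in haploid libraries and stood at 0.816 to 1.05 times the miR-200a-3p level in RS, a log2 difference of -4.05 in the miR-200a-3p to miR-200b-3p ratio. miR-200a-3p over miR-429-3p, neighbours in 1 cluster, was 1.93 to 3.23 in haploid libraries and 15.0 to 20 in RS, a log2 difference of -2.75. The RS ratios rest on 12, 9 and 9 counts of miR-429-3p. miR-200b-3p over miR-200c-3p was 3.32 to 7.85 in haploid libraries and 0.975 to 1.77 in RS, a log2 difference of 2.01. The pairs that did not pass were miR-200a-3p with miR-141-3p, miR-200c-3p with miR-429-3p, and miR-200b-3p with its 5p arm.

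R1 was compared with RS in the same fit, and the RS libraries are shared with the comparison above. edgeR called 33.6% of the 806 miRNAs higher and 19.4% lower in R1, with a median log2 difference of 2.04. Of the members 3 rose and none fell: miR-429-3p by 3.08 (SE 0.42, adjusted p = 1.28e-06), miR-200b-3p by 2.72 (SE 0.40, adjusted p = 3.85e-06) and miR-200a-5p by 1.12 (SE 0.46, adjusted p = 0.0442). miR-429-3p and miR-200b-3p kept direction and call in all 22 alternatives, and relative to total counts their R1 means were 5.02 and 4.03 times their RS means. The call of miR-200a-5p was lost with upper-quartile scaling (0.14, adjusted p = 0.826), total-count scaling (0.32, adjusted p = 0.672), the stricter filter (adjusted p = 0.0563) and the replicate block (adjusted p = 0.0523). It was also lost without A129-6 replicate 2 (adjusted p = 0.0541) or RS replicate 1 (adjusted p = 0.126), and its sign turned with the GC correction (-1.19). miR-200a-3p (0.57, adjusted p = 0.196) and miR-200c-3p (0.51, adjusted p = 0.360) did not pass and turned to -0.17 and -0.17 with total-count scaling, miR-141-3p stood at -1.15 (adjusted p = 0.269), and miR-200b-5p at 1.81 (adjusted p = 0.0729). The number of members called higher was 6 without A129-2 replicate 2, A129-6 replicate 1, A129-17 replicate 1 or 2, R1 replicate 2, or RS replicate 2 or 3. In those fits the log2 differences of all miRNAs shared with the full fit moved up by a median of 0.55 to 0.77. The further calls are therefore not particular to the members. Ratios of R1 to RS were not tested, since 2 against 3 libraries cannot go below a p of 0.10, but the ranges of miR-200b-3p over miR-200a-3p, 4.05 to 4.15 in R1 and 0.816 to 1.05 in RS, did not overlap.

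Other miRNAs of the epithelial state were read from a list of 16 known to target Zeb factors or to mark epithelia, of which 15 were tested against R1. In the haploid lines 4 were higher, 10 lower and 1 not called (edgeR), with a median log2 difference of -1.94 beside 0.33 over all miRNAs. miR-203-3p, a miRNA of stratified epithelium, rose by 4.53 (SE 0.44, adjusted p = 2.98e-07), with 108 to 214 CPM in haploid libraries and 6.81 and 9.15 in R1. miR-205-5p, which silences Zeb1 and Zeb2 as the family does, rose by 2.32 (SE 0.30, adjusted p = 6.36e-06), with 113 to 376 CPM in haploid libraries and 36.6 and 39.3 in R1. miR-34a-5p, a p53-induced miRNA, fell by 0.79 (SE 0.27, adjusted p = 0.0156), with 101 to 368 CPM in haploid libraries and 417 and 412 in R1, but not with upper-quartile scaling (-0.48, adjusted p = 0.0943). Of 16 miRNAs linked to the mesenchymal state, 4 were higher, 7 lower and 5 not called, with a median of -0.59. Beside both lists, 35.3% of all miRNAs tested were called higher and 35.3% lower. miR-203-3p and miR-205-5p moved in the opposite direction to the 6 members that fell, whereas 10 of the 15 tested on their list also fell.

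Over the 9 ESC libraries the miRNA whose log2 level was most like that of miR-200a-3p among 448 was miR-340-5p (Pearson's r 0.989), followed by miR-30e-3p and miR-1197-3p (both 0.982), miR-136-3p and miR-3071-5p (both 0.980). miR-136-3p and miR-3071-5p are antisense to each other and may share reads. For miR-200c-3p the most alike were miR-19b-3p (0.981), miR-7a-5p (0.972), miR-494-3p (0.971), miR-376c-3p (0.970) and miR-425-5p (0.967). Over the 7 haploid libraries alone these 10 values of r were 0.418 to 0.846. All points share the same libraries, and the r are descriptions. Between members, miR-200a-3p and miR-429-3p had an r of 0.987 over the 9 libraries and 0.834 over the 7 haploid ones. miR-200b-3p and miR-200c-3p had 0.905 and -0.048, and miR-200a-3p and miR-200c-3p 0.887 and -0.39. Among the haploid libraries the highest r of the 10 pairs of 3p members was that of miR-200a-3p and miR-429-3p.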

How the data were processed

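Small RNA was sequenced from sorted haploid ESC of 3 lines, R1 ESC and round spermatids, 12 libraries in all. The authors deposited unnormalised read counts for each miRNA. As the labels' protocols describe, adapters were joined to the 3′ end and then the 5′ end before PCR and gel sizing, and the submitters' processing notes list Bowtie 0.12.9 and DESeq2. The sources used here do not state the build, the miRBase release or how reads with several matches were handled. PCR reads without molecular identifiers are not independent molecules.

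The tests were run with edgeR 4.0.16 under R 4.3.3 (filterByExpr with a minimum count of 10 and a total of 15, TMM scaling, quasi-likelihood F-test, Benjamini-Hochberg adjustment over all miRNAs tested, threshold 0.05, two-sided). The 9 ESC libraries were fitted together, and all 12 for comparisons with RS, with the 3 haploid lines weighing equally. CPM are relative to total counts. DESeq2 1.42.0 was an alternative. Log2 ratios between members used a pseudocount of 0.5 and exact permutation tests over every arrangement of the libraries. Single-library intervals are exact at 95% (SciPy 1.17.1), a count of 0 was bounded by 3 counts, and all such limits cover counting error only. The edgeR tests, but not the permutation tests, were tried on simulated data with equal numbers of miRNAs raised and lowered. Such data do not hold the shifts with scaling seen against RS. Replicates of each group differed beyond counting noise (chi-square per degree of freedom 60.9 to 1360), so each library was counted once. GC content was known for 609 of 757 miRNAs tested (80.4%).

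The members, the lists and the comparisons were chosen with earlier results of these data known. The named miRNAs were the members, the other arms of their hairpins, the 5 miRNAs most like miR-200a-3p and the 5 most like miR-200c-3p over the ESC libraries, and miR-203-3p, miR-205-5p and miR-34a-5p of the epithelial list. The alternatives were other scalings, filters and tests, a GC correction, a replicate block, counts summed per line, all 12 libraries in the fit, and leaving out each library in turn.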

Additional observations from a re-analysis of the deposited data

How the results depend on the processing

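With 3 libraries of 155232 to 243714 counts, RS values rest on few reads, from 2 counts of miR-141-3p and 0 of miR-200b-5p upward, and there was 1 diploid line. Against R1, 136 of 147 values of single members over the alternatives kept the direction and the side of the threshold, and the other 11 changed sign. The replicate numbers did not pair the libraries (0 of 21 correlations of deviations over 0.1, range -0.11 to 0.09), and the replicate block left the call of the same 6 members unchanged. The log2 difference of miR-200b-3p against R1 was 0.17 with the GC offset and 0.11 with the replicate block and GC offset, and by line it was 0.26 and 0.26 for A129-2 and 0.39 and 0.39 for A129-17, and for A129-6 -0.14 and -0.32, with no call. That of miR-200b-5p, called in no alternative, was -0.18 with RLE scaling, -0.18 with DESeq2, -0.082 with total-count scaling, -0.052 when scaling left the miR-290 cluster out, -0.048 with no filter and -0.058 with the replicate block, and ran from -0.14 to 0.18 when 1 library was left out. For A129-2 it was 0.10 with the stricter filter and 0.56 with all 12 libraries in the fit, and for A129-6 0.40 in that fit. With the GC offset 3 members were lower in each of A129-2, A129-6 and A129-17, and miR-200b-5p was the 1 member higher in A129-17 with upper-quartile scaling, the stricter filter, the replicate block and GC offset, or all 12 libraries. Between the haploid lines the number of miRNAs called was 0 with total-count scaling, 82 with no filter, 3 with the stricter filter, 72 with the replicate block, 73 with the replicate block and GC offset, 90 with DESeq2, 2 with all 12 libraries and 0 to 80 without 1 library. Members called there were 3 with DESeq2, 1 with the replicate block and GC offset and 0 to 2 without 1 library. Of haploid lines against RS, 348 miRNAs were called with the replicate block and GC offset. Members lower were then 4, as with RLE scaling, the GC offset and DESeq2, and 5 with upper-quartile or total-count scaling. Members higher were 0 with those 2 scalings and 1 with either GC offset. All miRNAs moved too: 68.1% of those called were higher in the main fit. That share was 62.6% with RLE scaling, 61.3% with DESeq2, 48.6% with upper-quartile scaling and 46.1% with total-count scaling. It was 35.9% with the GC offset and 36.5% with the replicate block and GC offset. miR-200b-3p stood at -0.046 with total-count scaling, miR-429-3p at -1.07 with upper-quartile scaling, -1.18 with total-count scaling, -0.16 with the GC offset and -0.20 with the replicate block and GC offset, and miR-200a-5p ran from -0.98 to 0.37 without 1 library. In R1 against RS, members lower were 1 with upper-quartile scaling, 4 with the GC offset and 2 with the replicate block and GC offset, and members higher were 6 without the miR-290 cluster in the scaling or with no filter and 2 to 6 without 1 library. Of all miRNAs called in R1 against RS, 63.5% were higher in the main fit. The share was 49.6% with upper-quartile scaling, 39.2% with the GC offset and 38.2% with the replicate block and GC offset. It was 72.8% without the miR-290 cluster in the scaling and 72.2% with no filter. miR-200a-3p was -0.43, -0.17, -0.86 and -0.81 and miR-200c-3p -0.49, -0.17, -1.08 and -0.89 with upper-quartile scaling, total-count scaling, the GC offset and the replicate block with GC offset. With both GC settings in that order miR-200a-5p was -1.19 and -1.20, and miR-200b-5p -0.27 and -0.069. The ratio of miR-141-3p to miR-429-3p in haploid lines against R1 had a log2 difference of -0.27 to 0.46 without 1 library. Pairs with an adjusted p under 0.05 in the exact permutation test were 0 in both comparisons with line means and 0 to 6 against R1 without 1 library, with 0 whenever a haploid or R1 library was left out. With line means or 1 R1 library no p under 0.05 was possible, so those counts of 0 were fixed in advance. Leaving out a haploid library raised the smallest possible p. Against R1 the number of pairs was also 0 when adjusted over those 12 pairs alone. The difference of GC-corrected fitted values against R1 was 0.87 for miR-200b-3p over miR-200c-3p and 0.81 for miR-200a-3p over miR-200a-5p. These 2 alternatives were chosen after seeing the data. With TMM over all 12 libraries the summed 3p members averaged 1734, 1409, 1576, 3823 and 1178 CPM for A129-2, A129-6, A129-17, R1 and RS. With each 5p arm added to the sum that holds its 3p partner, the ratio of the seed-group sums was 3.54, 4.04, 3.54 and 2.19 for the 4 ESC groups in that order, and the cluster ratio of R1 was 2.77. The 5p arms carry neither of those seeds, so the first ratio is then one of hairpins. Where no reason is given, the cause was not tested.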
